A study of Arabidopsis thaliana with 8 samples.

Results

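The libraries described here are the 4 wild-type libraries of a series of 8 poly(A) RNA libraries from Arabidopsis thaliana rosette leaves. They were chosen by their sample titles, and rows that name no gene were left out. The plants were Col-0, the reference accession, grown for 4 weeks in soil at 22 °C with 16 h of light and 8 h of dark. Leaves 5 to 9 were harvested 4 h into the light period straight into liquid nitrogen, and the library kit preserved strand. Per the labels the plants were wild type, with no transgene named. The other 4 libraries come from the line ABI3:MTA (mta) and were not used here. The labels do not say whether the 4 wild-type libraries came from separate plants, pools of plants or 1 harvest, so every SD below (n = 4) measures library-to-library spread that may be technical.

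A mature rosette leaf is made mostly of photosynthetic mesophyll cells. Their chloroplasts need a large supply of nuclear-encoded proteins, which are made in the cytosol and imported: the antenna proteins that bind chlorophyll and pass light energy on, the peripheral subunits of both photosystems, the small subunit of Rubisco, which is the enzyme that fixes carbon dioxide, and the enzymes of the Calvin cycle. The core proteins of the photosystems and the large subunit of Rubisco are encoded in the chloroplast genome, and their transcripts mostly lack the poly(A) tails on which this library type selects. A library of leaf poly(A) RNA therefore shows the nuclear share of the photosynthetic apparatus.

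Abundance is given as CPM, counts per 1000000, each gene's share of the summed deposited values over all gene rows of its library. A long transcript gives more reads than a short one, so ranks, shares and folds in CPM order genes by the signal they hold, not by numbers of transcripts. For levels of transcripts, CPM was divided by transcript length and rescaled to a sum of 1000000 per library (the per-length level). Between 19204 and 19541 genes were listed per library, 20162 in at least 1 and 18736 in all 4. Of the 27562 protein-coding genes in the RefSeq annotation, 71.0% were listed and 7982 were not. A gene that is not listed can have had up to 0.157 to 0.159 CPM of reads assigned to it, because the deposited tables hold no value under 1. Reads without a unique position are not part of that bound. Depth in genes ranged from 17132903 to 25377345 reads per library, provided that the smallest step between deposited values stands for 1 read.

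Rows of reads outside single genes made up 12.3% to 12.8% of each library. WT 1 had the largest share of reads without a unique position, 7.07%, against 6.06% to 6.47% in the others, and it stood apart from the other libraries. Across the 3464 genes whose mean reached 50 CPM, its Spearman correlation with each of the others was 0.893 to 0.940. Among WT 2, WT 3 and WT 4 the correlations were 0.971 to 0.995. Among the same 3464 genes, WT 1 held the highest or the lowest value for 85.8%. A chi-square was taken across the 10598 genes whose mean reached 10 CPM. WT 2 and WT 3 were the closest pair, with 2.12 per degree of freedom if steps are reads. The other pairs gave 12.5 to 64.8, and all 4 libraries were kept as separate samples.

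The deviation of WT 1 followed transcript length. The median gene under 750 nt was 0.23 higher in WT 1 than the mean of the other libraries on the log2(CPM + 1) scale, and the median gene of 3000 nt or more was lower by a log2 difference of -0.46. WT 2 and WT 3 leaned the other way, with medians of 0.23 and 0.24 for the genes of 3000 nt or more, and WT 4 stayed near 0 at -0.03. Across 3463 genes, the Spearman correlation of deviation with length was -0.57 in WT 1, 0.58 in WT 2, 0.64 in WT 3 and -0.11 in WT 4. These 4 values are not independent, since each library is compared with the mean of the rest. The cause of the deviation was not tested. Several results that rest on WT 1 are given with and without it, and others only per library or over all 4. With 1 group there was no contrast to test, and the values that follow are descriptions.

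**Figure D1:**
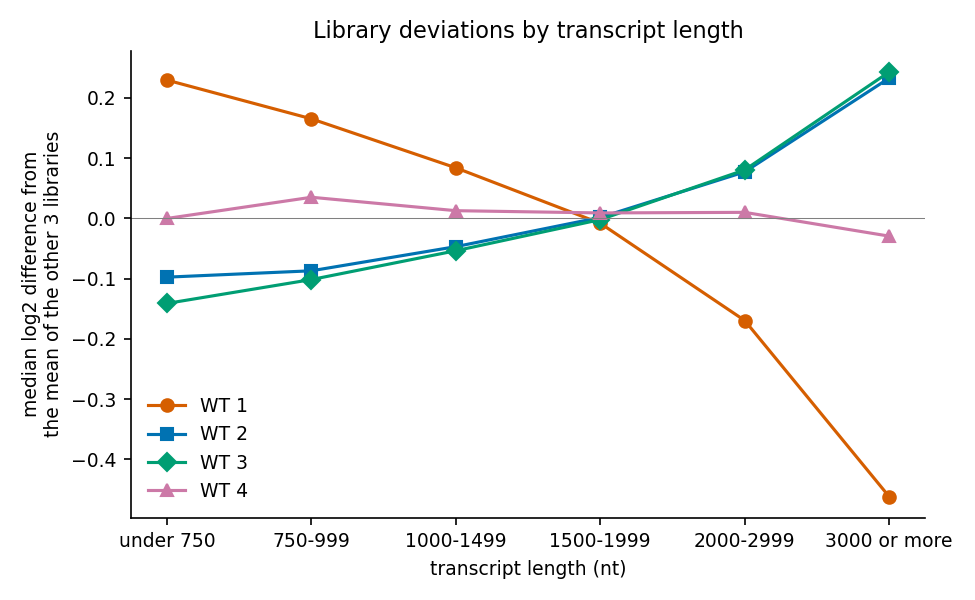
Median log2 difference of each wild-type library from the mean of the other libraries (y axis) in 6 classes of transcript length in nt (x axis), for 3463 genes whose mean reached 50 CPM. The line of WT 1 falls from 0.23 to -0.46, those of WT 2 and WT 3 rise to 0.23 and 0.24, and that of WT 4 stays near 0.

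All markers of mesophyll, phloem, epidermis, guard cells, xylem and bundle sheath were listed in all libraries. Their sums cover from 1 to 6 genes and do not order the cell types. The 4 mesophyll markers, RBCS1A, CAB1, RCA and CA1, summed to between 51373 and 58256 CPM. All are among the 30 most abundant genes, so this sum repeats the ranking by abundance. Phloem markers summed to 550 to 589 CPM, led by PP2-A1, a phloem lectin, and SUC2, the sucrose transporter that loads the phloem. Epidermal markers summed to 331 to 344 CPM, mostly KCS10, an enzyme of wax and cuticle lipid synthesis. Guard cell markers summed to 54.5 to 67.5 CPM, xylem markers to 26.3 to 33.5 CPM and the bundle sheath sulphate transporter AST56 to 19.1 to 21.7 CPM. The xylem sum was mostly XCP1, with a mean of 23.6 CPM. Some markers of these cell types were near the floor, with means of 0.623 CPM for VND7 of xylem and 2.12 CPM for PDF1 of epidermis. The guard cell markers HT1 and EPF1 had means of 1.26 and 0.799 CPM. Trichome markers were near the floor too, with a sum of 1.48 to 2.88 CPM, MYB0 not listed and GL3 listed in WT 3 only. None of the 3 pollen markers was listed, and of the 5 seed markers SESA1 alone was listed, in 2 libraries. Of 6 flower markers PI and AG were listed, at a sum of 0.536 to 0.789 CPM. Of 6 root markers PYK10 was listed in all libraries, at 19.9 to 23.4 CPM. PHT1;1 was listed in WT 4 only, at 0.158 CPM, and CASP1, SHV2, EXPA7 and RHD6 were not listed. Of 4 shoot meristem markers KNAT1 was listed in 3 libraries and STM in 2, with sums of 0.179 to 0.709 CPM, and WUS and CLV3 were not listed. In such bulk samples fewer cells of a type and less RNA per cell cannot be told apart.

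The leaf transcriptome was dominated by few genes. The 10 most abundant genes held 12.4%, 9.88%, 10.1% and 10.7% of the signal in WT 1 to WT 4 (10.8% ± 1.17, SD, n = 4), and the 100 most abundant held 32.2% ± 2.00. The 1000 most abundant held 59.7% ± 1.87. Without WT 1 the share of the 10 most abundant was 10.2% ± 0.461. To reach 50% of the signal took 396 genes in WT 1, 563 in WT 2, 552 in WT 3 and 482 in WT 4. WT 1 was the most concentrated library at every one of these points, and WT 2 the least.

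Below the leading genes the abundance fell off steeply. The mean was 6319 CPM at rank 10, 1053 at rank 100, 147 at rank 1000 and 11.5 at rank 10000. The median listed gene had 11.3 CPM, and the share of the first gene was 2007-fold higher than that. Only 3 genes passed 10000 CPM and 102 passed 1000 CPM, while 17009 reached 1 CPM. Those 102 genes held 32.3% of the signal, whereas the 10598 genes of at least 10 CPM held 96.9%.

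**Figure D2:**
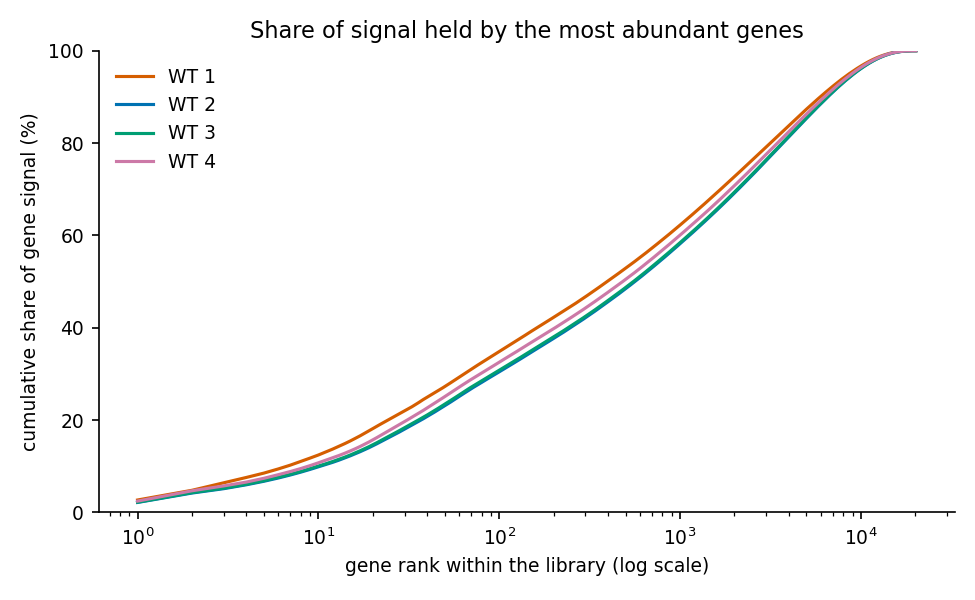
Cumulative share of the gene signal in percent (y axis) against gene rank within each wild-type library on a log scale (x axis). WT 1 lies highest, with 12.4% of the signal in 10 genes and 62.2% in 1000, while the lines of WT 2 and WT 3 run on top of each other with 58.2% and 58.4% in 1000 genes.

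The libraries shared most of their leading genes, though not their exact order. Of the 30 most abundant genes, 27 belonged to that set in every library, and 33 genes appeared in it in any library. For the top 100 these counts were 91 and 110, and for the top 1000 they were 879 and 1128. Division by transcript length kept 27 of the top 30, 81 of the top 100 and 802 of the top 1000 in the corresponding set.

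Per length, the 10 highest genes were CAB1 with 27151 ± 2917, RBCS1A with 26088 ± 1961, LHB1B2 with 16185 ± 4050, PSBR, CAB2, LHCA1, PSAF, PSAE-1, PSAG and AT5G42530. All but AT5G42530, which is described as uncharacterised, belong to photosynthesis. Short transcripts such as those of PSBR (784 nt), PSAE-1 (798 nt) and PSAG (780 nt) moved up from ranks 7, 18 and 20 by CPM to 4, 8 and 9. The 10 highest genes held 13.7% of the per-length total, and 294 genes on average held 50% of it.

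Photosynthesis filled the head of the list. Of the 30 most abundant genes, 27 encode antenna proteins, photosystem subunits, plastocyanin, the Rubisco small subunit or Rubisco activase, and together these 27 held 18.4% of the signal. The remaining genes of the top 30 were CAT3, a catalase that removes hydrogen peroxide, CA1, a carbonic anhydrase of the chloroplast, and ECS1, with 2638, 3309, 3405 and 3664 CPM in WT 1 to WT 4. Of the 100 most abundant genes, 51 were in the photosynthesis lists.

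CAB1 and RBCS1A shared the first place. CAB1, an LHCB1 antenna protein of photosystem II, had 26942, 20364, 20764 and 22358 CPM in WT 1 to WT 4. RBCS1A, a Rubisco small subunit gene, had 21037, 21620, 22137 and 24547 CPM. CAB1 was first in WT 1 only, and RBCS1A in the other libraries. Reads without a unique position were assigned to no gene, which can lower either value. Their per-length levels gave the same picture: the ratio of CAB1 to RBCS1A per transcript length was 1.32 in WT 1 and 0.971, 0.967 and 0.939 in WT 2, WT 3 and WT 4. Per coding length the ratio was below 1 in all 4 libraries, from 0.615 to 0.865. Which of these genes leads therefore depended on WT 1 and on the length used for the division, and the means of 22607 ± 3015 and 22335 ± 1542 CPM (SD, n = 4) differed by less than their spread.

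**Figure D3:**
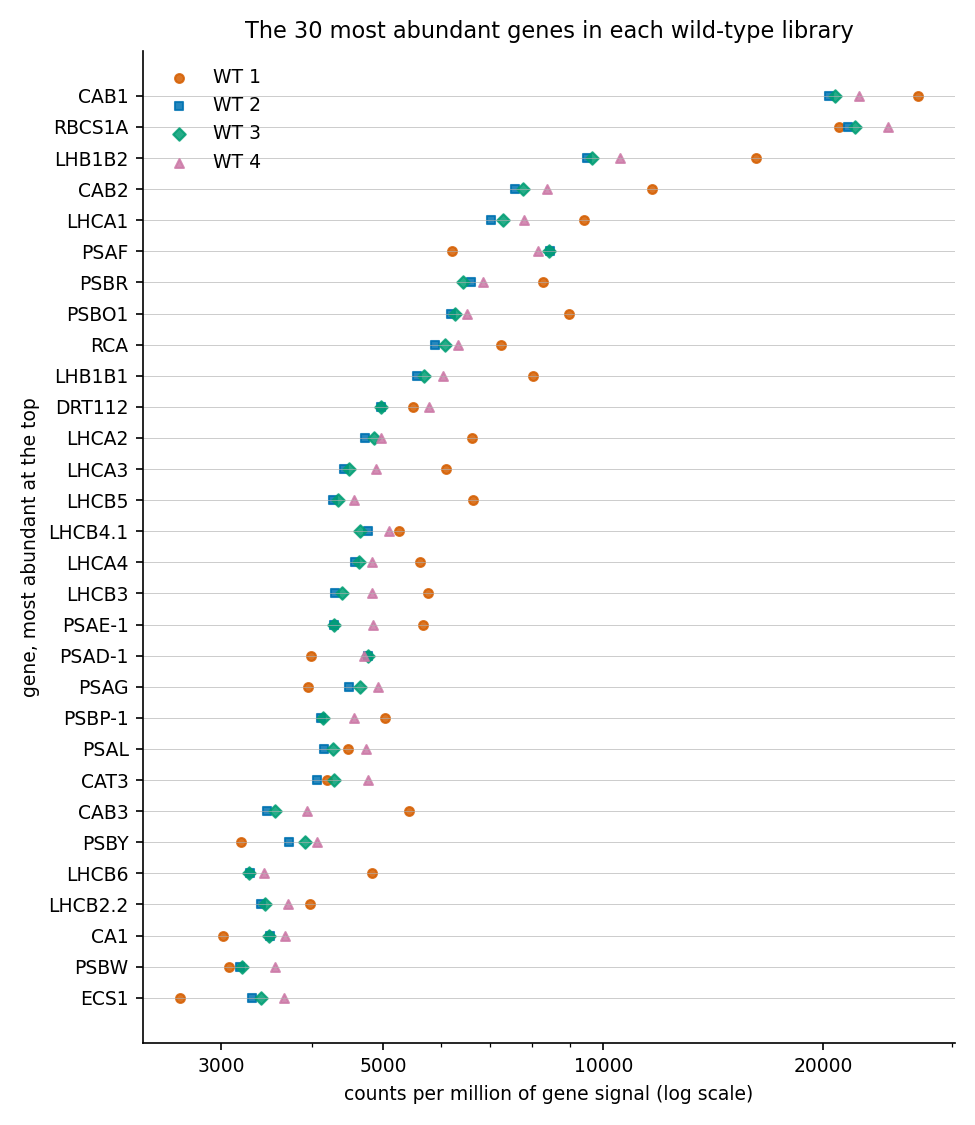
CPM of the 30 most abundant genes (x axis, log scale) in each wild-type library, ordered by mean from top to bottom (y axis). WT 1 is the highest point for 19 genes, antenna genes such as LHB1B2 and LHCB5 among them, and the lowest for 8, among them PSAF, PSAD-1 and ECS1.

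The antenna genes formed the largest group. All 21 were listed in all libraries, 17 of them were in the top 100, and together they held 13.2%, 9.51%, 9.67% and 10.4% of the signal in WT 1 to WT 4 (10.7% ± 1.72). Without WT 1 the antenna share was 9.86% ± 0.476. The trimeric antenna of photosystem II is built largely of LHCB1 proteins, encoded by 5 genes. These had 68235, 46459, 47427 and 51250 CPM in sum, highest in WT 1. CAB1, CAB2 and CAB3 lie next to each other with no gene between them, as do LHB1B1 and LHB1B2. Their coding sequences are near-identical copies, so the split of reads within each cluster is uncertain. Reads without a unique position were assigned to no gene, so single values and sums can both be too low.

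LHB1B2, the second LHCB1 gene in the order, had 16206 CPM in WT 1 and 9489, 9661 and 10553 CPM in WT 2, WT 3 and WT 4. WT 1 lay above all the others by far, and the highest value was 1.71-fold the lowest. CAB2 had 11645 CPM in WT 1 and 7581 to 8374 CPM in the other libraries. LHB1B1 had 8012 CPM in WT 1 and 5558 to 6029 CPM elsewhere. CAB3, LHCB3 and LHCB2.2, which also belong to the trimeric antenna, had means of 4098, 4819 and 3629 CPM, each highest in WT 1.

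The antenna of photosystem I consists mainly of 4 proteins, LHCA1 to LHCA4, and all 4 genes were in the top 30. LHCA1 led with 9411, 7031, 7301 and 7786 CPM in WT 1 to WT 4. LHCA2, LHCA3 and LHCA4 had means of 5296, 4974 and 4912 CPM. Their per-length levels of 5554, 5465 and 5607 lay within 1 SD of each other, while that of LHCA1 was 9703 ± 1062. The further members Lhca5 and Lhca6 had 119 and 130 CPM. The connecting antenna proteins of photosystem II, LHCB4.1, LHCB5 and LHCB6, had means of 4938, 4953 and 3705 CPM. LHCB4.1 varied least among them, from 4642 to 5251 CPM, whereas LHCB5 had 6641 CPM in WT 1 and 4276 to 4555 CPM in the others. The least abundant antenna genes were LHCB4.3 with 44.1 CPM and AT1G76570, listed as LHCB7 in the gene lists used here, with 9.43 CPM.

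Most antenna genes were raised in WT 1 by more than the median gene of like length. The 19 antenna genes of at least 50 CPM have transcripts of 980 to 1465 nt. Their median log2 difference between WT 1 and the mean of the other libraries was 0.35, from 0.12 to 0.71. The 778 genes of the same length range outside the photosynthesis lists had a median of 0.09, with quartiles of -0.08 and 0.26. Of the 19 antenna genes, 14 lay above that upper quartile. Genes of at least 50 CPM on some other lists were higher in WT 1 too. Their medians were 0.20 for photosystem II, 0.17 for the other Calvin cycle genes, 0.29 for the methionine cycle and 0.28 for ribosomal proteins. The ribosomal protein genes of that abundance have a median transcript of 1065 nt. Further lists were lower in WT 1, with medians of -0.32 for the circadian clock, -0.27 for protein kinases and -0.17 for starch and sucrose. Their genes of that abundance have median transcripts of 2522, 2515 and 2441 nt. The 13 photosystem I genes had a median of 0.03.

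Photosystem I passes electrons from plastocyanin to ferredoxin. Its 13 nuclear genes on the list were all among the 1000 most abundant and held 3.71%, 3.75%, 3.77% and 3.97% of the signal (3.80% ± 0.118). PSAF, the subunit at which plastocyanin docks, had 6203 CPM in WT 1 and 8457, 8425 and 8147 CPM in the other libraries, so WT 1 was low here. PSAE-1 and PSAD-1, which form the docking site of ferredoxin, went in opposite directions in WT 1: PSAE-1 had 5673 CPM there against 4285 to 4841 elsewhere, and PSAD-1 had 3990 CPM against 4705 to 4773. PSAG and PSAL had means of 4499 and 4411 CPM. Per length, PSAF, PSAE-1 and PSAG stood highest at 9634, 8831 and 8550. Gene pairs for the same subunit were unequal. The per-length level was 8831 for PSAE-1 and 836 for PSAE-2, 5960 for PSAD-1 and 3420 for PSAD-2, and 914 for PSAH-1 and 3797 for PSAH2.

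Photosystem II splits water at its oxygen-evolving complex. Its 15 nuclear genes held 4.00%, 3.37%, 3.38% and 3.66% of the signal (3.60% ± 0.298), so photosystem I was above photosystem II in WT 2, WT 3 and WT 4 but not in WT 1. PSBO1, the protein that stabilises the manganese cluster, had 8970 CPM in WT 1 and 6183 to 6520 CPM in the others. PSBR had 8274 CPM in WT 1 and 6423 to 6848 CPM elsewhere, and its short transcript gave it the fourth highest per-length level, 13256 ± 1258. PSBP-1, another protein of the oxygen-evolving complex, had a mean of 4458 CPM, and PSBY and PSBW, small membrane subunits, had 3720 and 3257 CPM. At the other end were PSB28 with 113 CPM, an assembly factor, and PSBP-2 with 20.3 CPM. PSBP-1 and PSBP-2 differed from 4878 to 29.8 in per-length level.

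The carriers between and after the photosystems and the chloroplast ATP synthase held 1.57% ± 0.081 of the signal over 14 genes. DRT112, a plastocyanin, made up about 33.8% of that with 5487, 4966, 4967 and 5782 CPM in WT 1 to WT 4. The second plastocyanin gene, PETE1, had a mean of 273 CPM. PDE334, a subunit of the ATP synthase, had 2231, 2193, 2169 and 2211 CPM, with little spread. FNR1, which hands electrons from ferredoxin to NADP, had 1963 CPM in WT 1 and 1454 to 1475 CPM in the others. The ferredoxin gene FED A had a mean of 1557 CPM and the second ferredoxin, FD1, 267 CPM.

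The 4 Rubisco small subunit genes held 2.69%, 2.68%, 2.76% and 3.03% of the signal (2.79% ± 0.163). RBCS1A gave 80.1% ± 1.26 of their summed CPM. RBCS3B had a mean of 2899 CPM, RBCS2B of 2484 CPM and RBCS1B of 167 CPM. Per length the order of the middle pair was reversed, with 3933 for RBCS2B and 3543 for RBCS3B, and RBCS1B stayed far below at 131. The 3 genes of the B group lie close together with 2 other genes between them. They are close copies, so the split among them is uncertain, and their sum can be too low for want of reads without a unique position.

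The 20 other Calvin cycle genes held 2.14% ± 0.180. RCA, Rubisco activase, which removes bound sugar phosphates from Rubisco, made up 29.8% of this with 7256 CPM in WT 1 and 5890, 6080 and 6319 CPM in the others. FBA2, a chloroplast aldolase, had 3172 ± 179 CPM, GAPA, a subunit of the glyceraldehyde phosphate dehydrogenase, 1477 ± 189 CPM and PRK, phosphoribulokinase, 1319 ± 71.9 CPM. CP12-1, a small protein that binds the last-named enzymes, had 1795 CPM in WT 1 and 1085 to 1151 CPM elsewhere, while PRK was lowest in WT 1 at 1215 CPM. The second transketolase, AT2G45290, had 12.2 CPM and was the least abundant of the group.

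The 87 genes of these 6 photosynthesis lists were all listed in all libraries, and 75 of them were in the top 1000. They held 27.7%, 22.8%, 23.1% and 24.8% of the signal in WT 1 to WT 4 (24.6% ± 2.22). Without WT 1 the mean share of these genes was 23.6% ± 1.08. The antenna to photosystem I ratio of summed CPM was then 2.54 to 2.62, and in WT 1 it was 3.56.

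**Figure D4:**
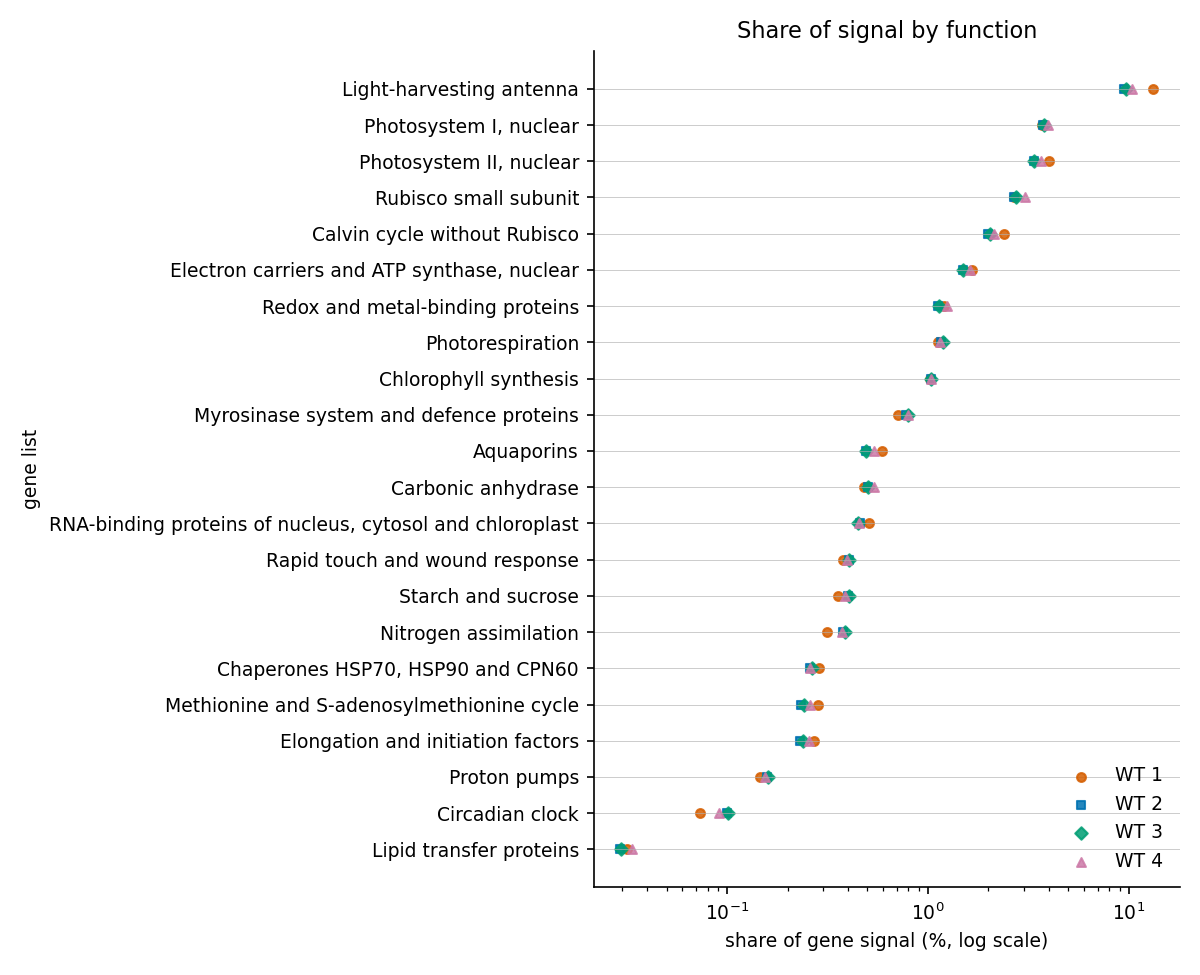
Share of the gene signal in percent (x axis, log scale) of 22 gene lists (y axis) in each wild-type library. The antenna is at the top with 9.51% to 13.2% and the lipid transfer proteins are at the bottom with a mean of 0.0311%.

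Chlorophyll synthesis and photorespiration were the steadiest of the larger groups. The 19 chlorophyll synthesis genes held 1.02%, 1.03%, 1.04% and 1.03% of the signal. CRD1, a subunit of the cyclase that closes the fifth ring of chlorophyll, had 2305 ± 87.0 CPM and AT1G74470, the reductase that makes the phytol tail, 1995 ± 69.9 CPM. GUN5, the large subunit of magnesium chelatase, had 1438 CPM in WT 1 and 1667 to 1847 CPM in the others. Of the protochlorophyllide oxidoreductases, PORB had 843 CPM and PORA, known as the form of dark-grown seedlings, 16.4 CPM.

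Photorespiration recycles the product that Rubisco makes when it takes up oxygen. Of its 24 genes, 23 were listed, and they held 1.13%, 1.16%, 1.19% and 1.15% of the signal. AGT and GGT1, peroxisomal aminotransferases that turn glyoxylate into glycine, had 1694 ± 95.7 and 1347 ± 65.3 CPM. GLDP1, the P protein of mitochondrial glycine decarboxylase, had 832 CPM in WT 1 and 1195 to 1250 CPM in the others. SHM1, the hydroxymethyltransferase that makes serine, had 945 ± 69.4 CPM. PGLP1 was not listed in any library. Reads without a unique position were assigned to no gene, so this does not show that PGLP1 was not expressed.

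Carbonic anhydrases held 0.507% ± 0.0225, nearly all in CA1 with 3418 ± 277 CPM and CA2 with 1391 ± 115 CPM. The next gene, BCA4, had 185 CPM. Starch and sucrose genes held 0.387% ± 0.0224, led by APE2, the exporter of triose phosphates from the chloroplast, with 1318 ± 44.1 CPM. ADG1 and APL1, subunits of the ADP-glucose pyrophosphorylase that starts starch synthesis, had 416 and 337 CPM, and FBP, of cytosolic sucrose synthesis, 300.6 CPM. SEX1, the glucan water dikinase of starch breakdown with a long transcript, had 119 CPM in WT 1 and 192 to 253 CPM elsewhere.

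Nitrogen assimilation held 0.362% ± 0.0327, and a single gene, NIA2, the main nitrate reductase, made up 54.2% of it. NIA2 had 1458 CPM in WT 1 and 2161, 2195 and 2048 CPM in the others, and NIA1, the second nitrate reductase, had 453 ± 56.5 CPM. The cytosolic glutamine synthetases GSR2 and GSR 1 had 453 ± 58.2 and 234 ± 15.0 CPM. Redox and metal-binding genes held 1.17% ± 0.0567. CAT3 led them with 4323 ± 307 CPM, MT3, a metallothionein, had 1193 ± 171 CPM and AT3G11630, a chloroplast peroxiredoxin, 834 ± 18.8 CPM. MT2B had 525 CPM, but per length its level of 1359 was above that of AT3G11630, 1050. MT1A was not listed.

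The myrosinase and defence genes held 0.768% ± 0.0404, more than the aquaporins. TGG1 and TGG2, the myrosinases that split glucosinolates when tissue is crushed, had 2740 ± 299 and 1778 ± 162 CPM and ranked 36 and 62 of all genes. ESM1, which shifts glucosinolate breakdown from nitriles towards isothiocyanates, had 718 ± 42.0 CPM. The pathogenesis-related genes BGL2 and PR1 had 649 ± 16.9 and 429 ± 17.6 CPM. THI2.1, a thionin, was not listed, and the defensin LCR67 was listed in WT 2 only, at 0.175 CPM.

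Aquaporins held 0.528% ± 0.0456, from 18 of 23 genes. TIP2, a water channel of the vacuole membrane, had 1387 ± 106 CPM, PIP2A and PIP2E of the plasma membrane 908 ± 92.7 and 566 ± 78.0 CPM, and DELTA-TIP 506 ± 45.2 CPM. TIP1;3, TIP2;3, TIP3;1, BETA-TIP and TIP5;1 were not listed. By share of signal, aquaporins and carbonic anhydrases were each ahead in 2 libraries, and so were photorespiration and the redox group. Per length both pairs separated, with 0.543% ± 0.0319 for aquaporins against 0.318% ± 0.0196 for carbonic anhydrases, and 1.34% ± 0.0528 for the redox group against 0.796% ± 0.0151 for photorespiration.

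RNA-binding proteins held 0.470% ± 0.0283. GRP7, a clock-controlled glycine-rich protein of nucleus and cytosol, led with 905 ± 111 CPM, followed by the chloroplast proteins AT2G37220, RBP31 and CP29 with 796, 780 and 660 CPM. The rapid touch and wound response genes, which rise within minutes of handling, held 0.395% ± 0.0126, and all 16 had at least 50 CPM. TCH3, a calmodulin-like protein, had 866 ± 27.8 CPM. The transcription factor WRKY33 had 355 CPM in WT 1 and 515 to 569 CPM elsewhere, JAZ1, a jasmonate repressor, had 412 ± 54.4 CPM and SZF1, a zinc finger protein, 383 ± 30.8 CPM.

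The lists of chaperones, the methionine cycle, and elongation and initiation factors held less than those above. They are short lists, and the ribosomal proteins, given below, held 1.98%. Chaperones held 0.268% ± 0.0128 with HSC70-1 at 1142 ± 79.1 CPM, cpHsc70-1 at 235 CPM, CPN20 at 196 CPM and SHD at 184 CPM. The heat-inducible members HSP101 and Hsp70b were at 2.08 and 4.00 CPM. The methionine cycle held 0.254% ± 0.0217, with ATMS1, methionine synthase, at 676 ± 24.0 CPM, HOG1, which clears S-adenosylhomocysteine, at 516 ± 71.7 CPM, and the S-adenosylmethionine synthetases SAM1 and SAM-2 at 343 and 241 CPM. Elongation and initiation factors held 0.250% ± 0.0175 with AT5G60390, an EF-1 alpha gene, at 664 ± 52.7 CPM, LOS1 at 466 CPM, FBR12 at 404 CPM and PAB2, a poly(A) binding protein, at 295 CPM. Several EF-1 alpha genes are near-identical, so their split is uncertain and their values can be too low.

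Proton pumps held 0.154% ± 0.00626, led by HA1, a plasma membrane pump, at 465 ± 42.8 CPM, with VHA-A at 344 CPM, AVP1 at 297 CPM and HA2 at 238 CPM. Lipid transfer proteins were the smallest group at 0.0311% ± 0.0019, with LP1 at 208 ± 15.8 CPM, AZI1 at 66.6 CPM, LTP4 at 19.5 CPM and LTP3 at 12.8 CPM. The circadian clock genes held 0.0732% of the signal in WT 1 and 0.0908% to 0.102% in the other libraries, and their median transcript of 2575 nt was among the longest. AT3G54500, listed as LNK2, had 159 ± 32.1 CPM. The repressors PRR5 and PRR7, which peak in the day, had 123 ± 13.7 and 123 ± 34.7 CPM, and GI had 82.8 ± 13.5 CPM. The morning genes CCA1 and LHY had 26.2 ± 4.71 and 22.2 ± 0.553 CPM.

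Broad classes taken from the gene descriptions gave another view. Of 329 genes described as ribosomal proteins, 296 were listed. They held 1.98% ± 0.162, less than the antenna, with none in the top 100 and 35 in the top 1000, the highest at 620 CPM. Of 374 genes with transcription factor in their description, 276 were listed and held 0.645% ± 0.0384, with 4 in the top 1000. Of 837 protein kinases, 664 were listed and held 1.69% in WT 1 and 1.95% to 2.14% in the other libraries. Their median transcript was 2434 nt.

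Among genes with transcription factor in their description, which leaves out others such as WRKY33, AT4G15545 had the largest share with 248 ± 19.2 CPM, followed by AT3G60320 with 189 ± 31.9 CPM and HON4, a linker histone, with 187 ± 5.77 CPM. AT2G30620, described as a winged-helix protein, had 220 CPM in WT 1 and 139 to 157 CPM elsewhere. WRKY53, a regulator of leaf senescence, had 134 ± 11.0 CPM, and SVP, a repressor of flowering, had 137, 121, 122 and 121 CPM. BTF3, AT1G25550, AT3G46600 and AT3G17100 followed with 107 to 114 CPM.

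Genes described as hypothetical, uncharacterised or unknown were few at the top but some were very abundant. This class rests on description text alone and includes genes of known function, such as GSR2 and GSR 1. Of 3119 genes described as hypothetical or unknown, 1298 were listed, holding 3.28% ± 0.0394 of the signal. AT5G42530 had 3064, 2863, 2977 and 3195 CPM and ranked 32, and with a transcript of 598 nt it ranked 10 by per-length level. Its coding length is 216 nt, and it had a coefficient of variation (CV, SD over mean) of 4.63%. AT2G25510 had 2375 ± 115 CPM and ranked 45. AT1G09310, AT5G02160 and AT1G67865 had 850, 761 and 542 CPM, each with a CV under 6%.

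The 100 most abundant genes had a median transcript of 1338.5 nt and a median coding length of 813 nt, against 1727.5 and 1113 nt for ranks 101 to 1000 and 1853.5 and 1239 nt for ranks 1001 to 5000. The genes from rank 10001 on were again shorter, at 1617 and 1107 nt. Single-exon genes made up 22% of the top 100, 13.1% of ranks 101 to 1000, 11.3% of ranks 1001 to 5000 and 20.3% of the genes from rank 10001 on, so the share was highest at both ends of the scale.

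The spread between libraries was small for most genes of at least 50 CPM. Over all listed genes the median CV was 13.6%. Among the 3464 genes of at least 50 CPM the median CV was 8.45%, with quartiles of 5.15% and 13.1%. A CV under 5% was found for 815 genes (23.5%) and one over 25% for 141 genes (4.07%). Without WT 1, and with the genes of at least 50 CPM chosen anew, the median CV was 4.08% and 10 genes passed 25%. The top 100 genes varied more than those of ranks 101 to 1000, with a median CV of 9.70% against 7.87%. Counting alone would give 0.470% and 1.44% if steps are reads, and 13.9% for the genes from rank 10001 on, where the observed median was 20.0%.

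**Figure D5:**
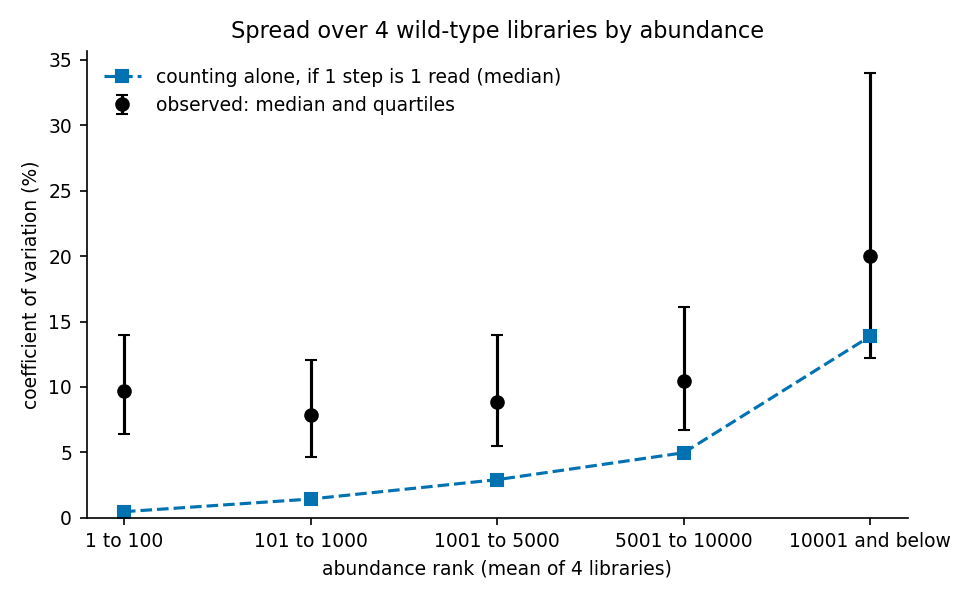
Coefficient of variation in percent over the 4 wild-type libraries (y axis) in 5 classes of abundance rank (x axis); black points are medians with quartiles as bars, and blue squares give the value expected from counting alone if 1 step is 1 read. The observed median lies near 10% down to rank 10000, far above counting alone at the top (9.70% against 0.470%), and rises to 20.0% below.

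The most variable of the genes of at least 50 CPM were mostly cell wall proteins. The 12 with the largest SD of log2(CPM + 1) were all lowest in WT 1. Of all 3464 genes of at least 50 CPM, 50.3% were lowest in WT 1, and the 12 were chosen by their spread over these libraries. Of the 12, 11 ran from high to low in the order WT 2, WT 3, WT 4, WT 1. The share of all genes with that order was not counted. Of the 12, 7 are extensins, proline-rich proteins or related proteins of the wall by name or description, namely LRX3, EXT3, EXT4, AT2G43150, CWLP, PRP4 and PERK10. AT2G15880 is described as a leucine-rich repeat protein. Extensins are rod-like glycoproteins that are cross-linked into the wall.

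EXT3 had 21.0 CPM in WT 1, 434 in WT 2, 337 in WT 3 and 141 in WT 4. LRX3, a leucine-rich repeat extensin, had 20.3, 485, 304 and 84.2 CPM in the same order. All 4 libraries differed for these genes, and the highest value was 20.7-fold the lowest for EXT3 and 23.9-fold for LRX3. AT2G43150, an extensin-like gene, had 10.8, 193, 94.6 and 30.5 CPM. EXT4 had 11.3, 179, 154 and 82.3 CPM, and CWLP had 82.4, 809, 638 and 316 CPM. The spread did not rest on WT 1 alone, since the CV over the other libraries was still 68.9% for LRX3, 77.2% for AT2G43150, 49.1% for EXT3, 42.6% for CWLP and 36.3% for EXT4. PRP4, which held the most signal of them, had 591 CPM in WT 1 and 2093, 1922 and 1559 CPM in the others, with a CV of 14.7% when WT 1 was left out.

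The transcripts of the 12 differ widely in length. EXT4 has 1343 nt, AT2G43150 1411 nt, EXT3 1654 nt and CWLP 1703 nt, and the median genes of 1000 to 1500 nt and of 1500 to 2000 nt deviated by 0.08 and -0.01 in WT 1. Others of the 12 have longer transcripts. PRP4 has 1935 nt, AT2G15880 2709 nt, LRX3 3088 nt, PERK10 3433 nt and AT1G70620 3820 nt, and the longest are those of UPL1 and UPL2, ubiquitin ligases, of 11404 and 11639 nt, and of AT3G50370 with 7367 nt. UPL1 had 23.0 CPM in WT 1 and 93.0, 89.7 and 58.8 CPM in the others, and UPL2 29.5 CPM and 100.3, 97.0 and 65.5 CPM.

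Genes with extensin or proline-rich in their description, a set chosen after these values were seen and holding several of the genes above, numbered 71 at 10 CPM or more. Of these, 56 (78.9%) were lowest in WT 1, against 54.0% of all genes of that abundance, which repeats the observation and is no support for it. Not every member followed it. AT4G19200 was highest in WT 1, at 637 CPM against 480 to 560 CPM. AT5G07020 had 246, 241, 239 and 259 CPM, and AT1G17620 had 168, 163, 161 and 163 CPM.

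The steadiest gene was PnsB2, a subunit of the chloroplast NDH complex that serves cyclic electron flow, with 162.6, 163.5, 162.0 and 161.6 CPM and a CV of 0.514%. AT5G14430, a methyltransferase family gene, had 54.6, 55.3, 54.5 and 54.9 CPM. AT1G66100, described as a thionin, had 217, 220, 217 and 217 CPM. RBP47B, AT5G01590, COG0212, RAP2.12 and AT4G14740 followed with CVs of 0.813% to 0.877%. RAP2.12, an oxygen-regulated transcription factor, had 131.5 ± 1.13 CPM. These CVs are the smallest of 3464 genes and so are low in part through selection.

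The 21 genes in common use as references for expression ranged from steady to variable. Of these, 12 reached 50 CPM and 9 lay below. The CVs ran from 3.83% for PTB1, at 15.2 CPM, to 27.6% for UPL7, at 9.91 CPM, with a median of 10.4%, and 9 were under 10%. Without WT 1 the median was 5.96% and UPL7, whose transcript has 3731 nt, was still highest at 13.1%. ACT2 had 326, 301, 307 and 323 CPM, a CV of 3.84%. UBQ10, polyubiquitin, had 3093 CPM in WT 1 and 2361 to 2639 CPM elsewhere, and ranked 40 of all genes. PP2AA3, a phosphatase subunit, had 42.8, 52.0, 50.2 and 44.9 CPM. GAPC2 was nearly level in WT 2 to WT 4, at 428 to 432 CPM, but had 570 CPM in WT 1. For UBQ10 and GAPC2 the library WT 1 set most of the spread, since their CVs fell from 12.3% and 15.0% to 5.66% and 0.503% without it. This did not hold for every gene. Without WT 1 the CV of ACT2 was 3.60%, and those of PTB1, PEX4 and ACT7 rose slightly.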

How the data were processed

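Poly(A) RNA-seq of 4 wild-type leaf libraries was analysed from 1 deposited table per library. Per the submitters' processing notes, STAR 2.4.0, HTSeq and DESeq2 were used with TAIR10; their roles and order are not given in the sources used here. The deposited values are a normalised signal per gene: within each library every value was a whole multiple of 1 step (100% within 0.02 steps), and no value was under 1. Reads could not be recovered with certainty, so no count model was fitted and the counting error is conditional on 1 step being 1 read.

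Rows that name no gene (12.3% to 12.8% of the summed signal) were left out, and values were scaled to a sum of 1000000 per library (CPM). Symbols, descriptions, transcript lengths, coding lengths and exon numbers came from the RefSeq annotation of TAIR10.1, in which 20060 of 20162 gene IDs matched; gene order in it gave neighbouring genes, and no coordinates are printed. Protein and promoter sequences were planned and were not analysed here. SD of log2 used log2(CPM + 1), and spread was described for genes of at least 50 CPM, except for reference genes, abundance classes and the proline-rich set. Calculations used Python 3.11.15, pandas 2.3.3, numpy 2.4.6 and scipy 1.17.1 and were tested on simulated data.

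There was 1 group, so no test between groups was made; Dixon's outlier criterion was applied to single values. Libraries were kept apart, since no pair agreed within sampling noise. Genes and lists were chosen with earlier results of these data known. Named by rule were the 30 most abundant genes, the 10 highest per length, and up to 4 leading members of each list with its unlisted members. The 12 most variable and 8 steadiest genes and the marker and reference genes were also named by rule. So were the 10 leading genes with transcription factor in their description and the 5 leading genes described as hypothetical or unknown. The least abundant list members, gene pairs and further examples named beside them were chosen after their values were seen. Alternatives covered the denominator, scaling, length, filters, the pseudocount and leaving out each library; division by coding length was added after the data were seen.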

Additional observations from a re-analysis of the deposited data

Results flagged for a closer look

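For 4 libraries, a value was singled out when its gap to the nearest other library exceeded the critical share of the range (Dixon's criterion). Chance alone would do this in about 1 of 20 groups of independent values that were not chosen by their spread. Of 51 genes checked, 8 passed, 7 of them through WT 1. That rate does not apply to this count. Some of these genes, such as AT1G66100, were chosen by their spread over the same libraries, and shifts in WT 1 are shared between genes. The gap took 0.842 of the range for LHB1B2, 0.879 for PSBO1, 0.871 for LHCA2, 0.882 for LHCB5 and 0.899 for LHCB6, all highest in WT 1. For the photosystem I genes PSAF and PSAD-1 it took 0.863 and 0.912, with WT 1 lowest. The steady gene AT1G66100 had a gap of 0.882 with WT 2 highest, at 220 CPM against 217 CPM in each of the others, so the whole range is small.

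Of 28 gene-list shares, 1 passed. The RNA-binding proteins held 0.512% of the signal in WT 1 and 0.451% to 0.460% in the others, a gap of 0.839 of the range. None of the 6 measures of concentration passed.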

How the results depend on the processing

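No paired analysis was possible because the libraries form 1 group with no contrast and no test. Of 124 values of the main results under alternatives, 89 stayed within 1 SD (or, for counts, within 1.5 times) and 35 moved. Of 216 values of the shares of further gene lists, 146 stayed and 70 moved. Concentration measures and list shares are means over the libraries, and leaving out 1 of 4 libraries cannot shift such a mean by 1 SD. Those leave-out values stayed by construction, so the counts are no measure of robustness to leaving out WT 1 or any other library. Division by transcript length and by coding length raised the share of the first gene from 2.38% to 2.80% and 3.45%, of the first 10 to 13.7% and 14.3%, of the first 100 to 38.8% and 40.8% and of the first 1000 to 65.3% and 67.9%, and lowered the mean number of genes that hold 50% of the signal from 498 to 294 and 236.5 and of those that hold 90% from 6341 to 5543 and 4934.5. It raised the antenna to 12.6% (per transcript length), Rubisco small subunits to 3.37% and 4.29%, photosynthesis to 30.7% and 30.3%, and ribosomal proteins to 2.89% and 3.08%. With rows outside genes in the denominator the first gene held 2.08%, the first 10 9.43%, the first 100 28.1%, the first 1000 52.2%, Rubisco small subunits 2.44%, photosynthesis 21.5% and ribosomal proteins 1.73%. Summing the Rubisco genes gave a first share of 2.79%, and leaving out the most abundant gene an antenna share of 8.63%. The median CV was 13.6% with no filter on low values, where shallow genes enter. Over leave-outs of 1 library it ran from 4.08% (without WT 1) to 9.28%, the median SD of log2 from 0.058 to 0.13 and the number of genes with a CV over 25% from 10 (without WT 1) to 248 (without WT 4), against 141 in all 4; it was 687 for genes of at least 10 CPM and 4501 with no filter. Genes below about 0.157 CPM cannot be told from absent, since the deposited tables hold no value under 1.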

Other observations

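Transcripts that code for no protein took a small share of the signal. The 107 genes of the annotation class ncRNA that were listed held 0.091% to 0.131%, and the 177 lncRNA genes held 0.0598% to 0.0685%. Most abundant was AT4G13495, at rank 245, with 249 CPM in WT 1 and 582, 563 and 426 CPM in WT 2, WT 3 and WT 4, so that WT 1 was lowest. Its transcript has 876 nt. GUT15, named for its unstable transcript, had 71.3, 108, 109 and 93.9 CPM in the same order of libraries. The precursor of MIR398c, a microRNA known to target transcripts of copper proteins such as superoxide dismutases, had 71.2 ± 4.95 CPM with its highest value in WT 1. In all, 18 microRNA precursors were listed, holding 0.0117% to 0.0121%.

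The organelle genes were nearly absent from these poly(A) libraries. The 61 listed genes with chloroplast IDs held 0.0225% to 0.0372% of the signal and the best of them ranked 3674. The 22 listed genes with mitochondrial IDs held 0.00432% to 0.00713% and the best ranked 5647. These values describe polyadenylated RNA only, not organelle transcript levels in the leaf.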
